A study of Homo sapiens with 12 samples.

Results

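The 48 genes described here encode the machinery that shortens, decaps and degrades mRNA and the machinery through which microRNAs act. They were taken by gene symbol from the count table and comprise 11 subunits of the CCR4-NOT deadenylase, 3 other deadenylase genes, 4 BTG/TOB adaptors, 9 genes of decapping and 5′-to-3′ decay, 6 of nonsense-mediated decay, 7 of the microRNA machinery, 5 of the RNA exosome and 3 RNA-binding proteins that recruit decay enzymes. All 48 were among the 59385 gene names of the table, and all 48 were among the 18166 genes that passed the filter on low counts and were tested.

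A poly(A) tail is removed from most mRNAs before they are degraded, first by PAN2-PAN3 and then by CCR4-NOT, and the deadenylated message is decapped and digested from its 5′ end by XRN1 or from its 3′ end by the exosome. Argonaute proteins loaded with a microRNA bind TNRC6 proteins, which in turn recruit CCR4-NOT to the target. Nonsense-mediated decay uses UPF and SMG proteins to recognise messages with a premature stop codon and passes them to the same enzymes.

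Polysome-seq was performed on HEK293T, a human embryonic kidney cell line. Cells carried a Dox-inducible shRNA, either a non-targeting control (shCtrl) or one against PRRC2B (shPRRC2B), an RNA-binding protein, and were collected 36 h after Dox was added to both. Total RNA and RNA of the pooled heavy fractions of a sucrose gradient (polysome RNA) were sequenced after poly(A) enrichment in 3 biological replicates each, which gave 12 libraries. Both lines were single clones, 1 for each shRNA, and an effect of the shRNA cannot be told apart from a difference between the clones. In bulk RNA of this kind, fewer cells with an mRNA and less of it in each cell cannot be told apart either.

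The authors deposited the number of read pairs counted for each gene. Levels are given as CPM, the counts relative to library sizes scaled by TMM, a method that assumes most genes do not differ. Translation efficiency (TE) is the ratio of polysome RNA to total RNA, and the TE change is the log2 difference of that ratio between the lines, negative where it was lower in shPRRC2B. The calls TE-down and TE-up required a change of more than 0.5 log2 units and an adjusted p of less than 0.05. Every adjusted p printed came from the quasi-likelihood test of edgeR, adjusted by the method of Benjamini and Hochberg over all genes tested. SE stands for an approximate standard error, the absolute log2 change divided by the square root of the F statistic of that test.

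Library totals lay between 9855734 and 20837542 counts. PRRC2B mRNA, the target of the knockdown, was 272, 313 and 258 CPM in the shCtrl libraries and 97.9, 103 and 101 CPM in the shPRRC2B libraries of total RNA, a log2 change of -1.49 (adjusted p = 4.25e-06). The markers VIM, KRT8, KRT18, PAX2 and LIN28B were detected in all 12 libraries, with at least 23 counts each. PTPRC, HBB, ALB and MYH7, which mark leukocytes, erythroid cells, hepatocytes and cardiac muscle, had at most 6 counts in any library, while the fibroblast collagen gene COL1A1 was present at 2.93 to 34 CPM. Replicate libraries differed by more than sampling noise in every group, with a chi-square per degree of freedom of 3.13 to 7.74 in total RNA and 12.7 to 68.1 in polysome RNA. The slope of each library on transcript length, relative to the mean of all libraries, was 0.37 to 0.40 log2 units per doubling of length in the total RNA of shCtrl cells and 0.45 to 0.46 in that of shPRRC2B cells. In polysome RNA it was -0.32 to -0.35 in the shCtrl libraries and -0.47 to -0.54 in the shPRRC2B libraries.

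Of the 48 members, 26 (54.2%) were TE-down in shPRRC2B cells and 1 was TE-up, beside 16.4% TE-down and 10.7% TE-up among all genes tested. The other 21 were not called. When any single library was left out 20 of the 26 kept their call, and AGO2, PUM2, EXOSC10, PATL1, EDC3 and TOB1 lost it in at least 1 of the 12 fits. The fitted TE change was below 0 for 40 members, beside 9384 of the 18166 genes tested. Its median over the members was -0.70, beside -0.034 over all genes tested. The 26 TE-down members spanned all 8 role groups, from DDX6 at -2.16 to EXOSC10 at -0.51, and BTG1 was the TE-up member at 0.69. Members are longer than other messages: the median transcript was 4594 nt beside 3039.5 nt for the 15762 tested genes with a known length, and TE-down calls were more frequent among long transcripts generally. With the trend on transcript length, a smooth curve of the counts on length, removed from every library, 13 members were TE-down and 3 were TE-up, beside 10.7% and 9.91% of all genes tested, and the median TE change of the members was -0.33. Genes without a known length were left unadjusted in that fit and are counted in these shares of all genes.

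**Figure D1:**
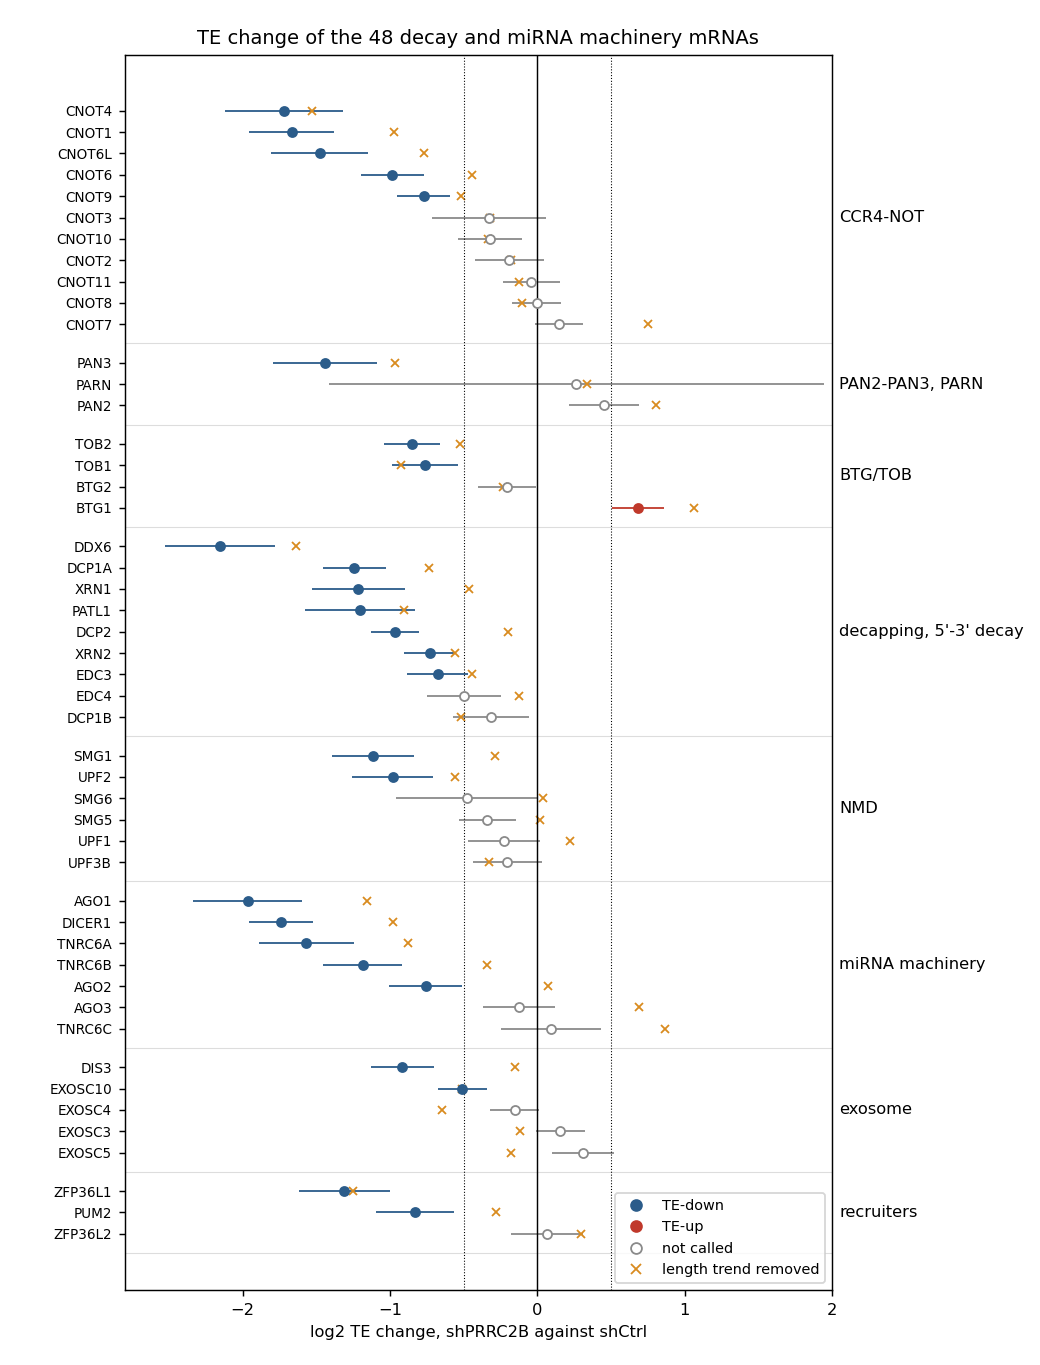
Fitted log2 TE change of each of the 48 members (points, bars 1 standard error), grouped by role, with the value after removal of the length trend as crosses. Filled blue points are the 26 TE-down members, the red point is BTG1, and dotted lines mark the limits of 0.5 on either side of 0.

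In polysome RNA, 21 members were lower and 1 was higher in shPRRC2B than in shCtrl cells, beside 21.4% and 18.4% of all genes tested. In the fit with the length trend removed 13 were lower and 7 were higher, beside 16.9% and 19.4% of all genes. The median log2 change of the members in polysome RNA was -0.43, and that of all genes was -0.011. The 3 shPRRC2B polysome libraries all lay below the 3 shCtrl libraries for 21 members, beside 21.5% of all genes. In total RNA, 4 members were lower (CNOT10, DCP1A, UPF3B and EXOSC5) and 8 were higher (CNOT6, EDC4, UPF2, TNRC6A, TNRC6B, DICER1, EXOSC4 and EXOSC10), beside 14.1% lower and 14.9% higher among all genes. The total RNA libraries of shPRRC2B all lay above those of shCtrl for 28 members, beside 34.1% of all genes. Of the 26 TE-down members, 15 were lower in polysome RNA without being higher in total RNA, 3 (TNRC6A, TNRC6B and DICER1) were both lower in polysome RNA and higher in total RNA, and 3 (CNOT6, UPF2 and EXOSC10) were higher in total RNA only. The remaining 5 (CNOT9, TOB2, EDC3, XRN2 and AGO2) passed the thresholds in neither fraction taken alone.

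**Figure D2:**
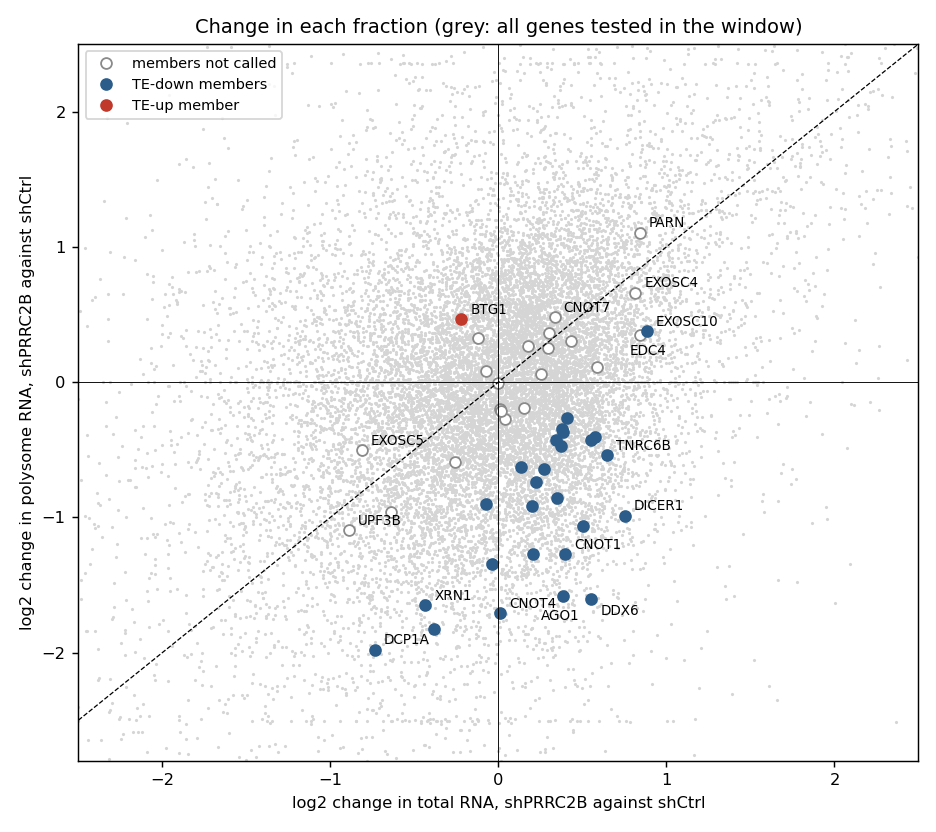
Log2 change between shPRRC2B and shCtrl cells in total RNA (horizontal axis) and in polysome RNA (vertical axis) for the 48 members, with all tested genes that lie inside the axes in grey. Points below the dashed diagonal have a TE change below 0, which is the case for 40 members and 9384 of 18166 genes tested. The 26 TE-down members in blue lie in the lower part of the plot except EXOSC10.

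CCR4-NOT is built on the scaffold CNOT1, carries a pair of deadenylase activities (CNOT6 or CNOT6L, and CNOT7 or CNOT8) and docks its partners through the other subunits. TE fell for 5 of its 11 members, CNOT4, CNOT1, CNOT6L, CNOT6 and CNOT9, and rose for none. The median TE change of the 11 was -0.33, and 3 of the 5 calls (CNOT1, CNOT4 and CNOT9) were also made with the length trend removed, at -0.97, -1.53 and -0.52. CNOT4 is the E3 ubiquitin ligase associated with the complex. CNOT4 stood at 10.4, 14.97 and 21.0 CPM in shCtrl polysome RNA and at 7.65, 4.01 and 2.28 CPM in shPRRC2B polysome RNA. In total RNA, CNOT4 reached 28.04, 23.8 and 26.1 CPM in shCtrl cells, against 25.2, 25.3 and 27.98 CPM in shPRRC2B cells. The total RNA of the lines overlapped, whereas every shPRRC2B polysome library lay below every shCtrl one. For CNOT4 the TE change was -1.72 (SE 0.4, adjusted p = 0.00439). In GRCh38 the gene lies on chromosome 7 (135361795 to 135510102, minus strand).

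Polysome RNA of CNOT1 was 37.5, 69.1 and 72.7 CPM in the shCtrl libraries and 31.4, 24.5 and 18.2 CPM in the shPRRC2B libraries. Total RNA of CNOT1 was 285, 301 and 306 CPM in shCtrl and 380.4, 406 and 388 CPM in shPRRC2B cells. The lines were separate in both fractions and in opposite directions, lower in polysome RNA and higher in total RNA for shPRRC2B. For CNOT1 the TE change was -1.67 (SE 0.29, adjusted p = 0.000554). Its message is 8411 nt long and lies on chromosome 16 (58519951 to 58629826, minus strand). CNOT9 is a subunit through which TNRC6 proteins are bound. CNOT9 stood at 66.1, 85.3 and 71.9 CPM in shCtrl polysome RNA and at 61.7, 55.5 and 48.6 CPM in shPRRC2B polysome RNA. In total RNA, CNOT9 reached 73.2, 75.5 and 71.2 CPM in shCtrl cells, against 90.7, 92.7 and 95.8 CPM in shPRRC2B cells. The shPRRC2B libraries were all lower in polysome RNA and all higher in total RNA, although neither fraction passed the thresholds by itself. For CNOT9 the TE change was -0.77 (SE 0.177, adjusted p = 0.00396).

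CNOT6 and CNOT6L, alternative deadenylase subunits of the complex, were both TE-down. Polysome RNA of CNOT6 was 31.2, 33.3 and 44.7 CPM in the shCtrl libraries and 31.9, 27.7 and 21.2 CPM in the shPRRC2B libraries. Total RNA of CNOT6 was 77.9, 80.8 and 82.9 CPM in shCtrl and 115, 124 and 115 CPM in shPRRC2B cells. The polysome values of CNOT6 overlapped between the lines, and its total RNA rose by 0.55 on the log2 scale (adjusted p = 0.00806). CNOT6L stood at 7.12, 10.9 and 11.2 CPM in shCtrl polysome RNA and at 4.90, 5.16 and 1.90 CPM in shPRRC2B polysome RNA. In total RNA, CNOT6L reached 39.4, 40.2 and 40.8 CPM in shCtrl cells, against 48.2, 49.1 and 41.6 CPM in shPRRC2B cells. Both fractions of CNOT6L were separate, lower in polysome RNA and higher in total RNA. CNOT6 had a TE change of -0.98 (SE 0.216, adjusted p = 0.00302), and CNOT6L one of -1.48 (SE 0.332, adjusted p = 0.0035). Neither was called once the length trend was removed (-0.44 and -0.77).

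CNOT7 and CNOT8 encode the other, interchangeable pair of deadenylase subunits, and neither was called. Polysome RNA of CNOT7 was 154, 154 and 178 CPM in the shCtrl libraries and 252, 214 and 212 CPM in the shPRRC2B libraries. Total RNA of CNOT7 was 53.8, 53.9 and 59.4 CPM in shCtrl and 72.8, 69.4 and 68.4 CPM in shPRRC2B cells. For CNOT7 both fractions were higher in every shPRRC2B library, and it was 1 of the 5 members whose polysome RNA exceeded total RNA in shCtrl cells by the test. CNOT8 stood at 42.5, 46.3 and 38.1 CPM in shCtrl polysome RNA and at 42.7, 40.9 and 42.7 CPM in shPRRC2B polysome RNA. In total RNA, CNOT8 reached 35.9, 36.4 and 40.0 CPM in shCtrl cells, against 35.97, 38.3 and 37.7 CPM in shPRRC2B cells. The CNOT8 libraries of the lines overlapped in both fractions. CNOT7 had a TE change of 0.15 (SE 0.165, adjusted p = 0.541), which became 0.75 (adjusted p = 0.00243, TE-up) with the length trend removed. The TE change of CNOT8 was -0.0050 (SE 0.169) and turned positive under some alternatives. Of the remaining subunits, CNOT2, CNOT3, CNOT10 and CNOT11 had TE changes of -0.19, -0.33, -0.32 and -0.042 and were not called. CNOT10 fell in both fractions, with log2 changes of -0.64 in total RNA and -0.96 in polysome RNA (adjusted p = 0.00384 and 0.000106).

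Among the other deadenylases, the adaptor PAN3 was TE-down while its catalytic partner PAN2 was not called. Polysome RNA of PAN3 was 10.3, 9.55 and 17.4 CPM in the shCtrl libraries and 5.33, 2.96 and 2.09 CPM in the shPRRC2B libraries. Total RNA of PAN3 was 38.04, 37.2 and 40.3 CPM in shCtrl and 29.1, 31.7 and 27.7 CPM in shPRRC2B cells. All shPRRC2B libraries of PAN3 lay below the shCtrl libraries in both fractions. For PAN3 the TE change was -1.44 (SE 0.351, adjusted p = 0.00593). PAN2 had a TE change of 0.45 (adjusted p = 0.169), and 0.81 (adjusted p = 0.0203, TE-up) with the length trend removed. PARN, a poly(A)-specific ribonuclease, had a TE change of 0.26 with a standard error of 1.68. Its counts in the 3 replicates were 139, 3 and 55 in shCtrl total RNA, 17, 2 and 0 in shCtrl polysome RNA, 212, 168 and 8 in shPRRC2B total RNA and 31, 15 and 0 in shPRRC2B polysome RNA. This spread within each group was chosen for mention after the values were seen, and no comparison of PARN between the lines can be made from it.

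BTG and TOB proteins bind the CNOT7 and CNOT8 subunits and activate deadenylation. Here BTG1 was the 1 TE-up member of the 48, and TOB1 and TOB2 were TE-down. BTG1 stood at 99.5, 109 and 108 CPM in shCtrl polysome RNA and at 128, 144 and 165 CPM in shPRRC2B polysome RNA. In total RNA, BTG1 reached 38.6, 41.1 and 42.1 CPM in shCtrl cells, against 33.5, 39.0 and 31.96 CPM in shPRRC2B cells. Every shPRRC2B polysome library of BTG1 was above every shCtrl one, while total RNA overlapped. For BTG1 the TE change was 0.69 (SE 0.177, adjusted p = 0.00837). It lies on chromosome 12 (92140278 to 92145846, minus strand). Its polysome change of 0.47 (adjusted p = 0.00561) did not reach the limit of 0.5, and neither did the change in total RNA of -0.22. Polysome RNA of TOB2 was 12.4, 15.6 and 15.6 CPM in the shCtrl libraries and 10.2, 11.9 and 9.23 CPM in the shPRRC2B libraries. Total RNA of TOB2 was 58.5, 61.7 and 59.2 CPM in shCtrl and 79.0, 77.6 and 76.1 CPM in shPRRC2B cells. The TOB2 libraries separated downward in polysome RNA and upward in total RNA. For TOB2 the TE change was -0.85 (SE 0.192, adjusted p = 0.00361). TOB1 had a TE change of -0.76 (SE 0.226, adjusted p = 0.0186) and BTG2 one of -0.21 (adjusted p = 0.465). The calls of BTG1 (1.06) and TOB1 (-0.92) were also made without the length trend, and that of TOB2 was not (-0.52, adjusted p = 0.0559).

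Decapping and 5′-to-3′ decay had 7 of 9 members TE-down and a median TE change of -0.97, and 3 of 9 were TE-down with the length trend removed. The members called were DDX6, DCP1A, XRN1, PATL1, DCP2, XRN2 and EDC3. DDX6 is the DEAD-box helicase that represses translation and joins CCR4-NOT to decapping. DDX6 stood at 24.6, 38.4 and 28.3 CPM in shCtrl polysome RNA and at 12.7, 13.5 and 3.71 CPM in shPRRC2B polysome RNA. In total RNA, DDX6 reached 116, 122 and 113 CPM in shCtrl cells, against 178, 177 and 159 CPM in shPRRC2B cells. The shPRRC2B polysome values were all lower, with replicate 3 the lowest, and the total RNA values all higher. For DDX6 the TE change was -2.16 (SE 0.375, adjusted p = 0.000556). Its gene lies on chromosome 11 (118747763 to 118791164, minus strand), and its TE change was -1.64 (adjusted p = 0.00401) with the length trend removed.

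DCP1A, the activator of the decapping enzyme, fell in both fractions. Polysome RNA of DCP1A was 24.1, 20.2 and 19.4 CPM in the shCtrl libraries and 5.93, 5.92 and 4.28 CPM in the shPRRC2B libraries. Total RNA of DCP1A was 65.9, 65.7 and 76.2 CPM in shCtrl and 38.7, 43.5 and 42.4 CPM in shPRRC2B cells. The log2 change was -0.74 in total RNA (adjusted p = 0.000522) and -1.98 in polysome RNA (adjusted p = 1.22e-07). For DCP1A the TE change was -1.24 (SE 0.214, adjusted p = 0.000506). DCP2, the decapping enzyme itself, was lower in polysome RNA only. DCP2 stood at 74.7, 80.6 and 63.7 CPM in shCtrl polysome RNA and at 44.02, 44.5 and 42.6 CPM in shPRRC2B polysome RNA. In total RNA, DCP2 reached 87.6, 86.8 and 93.8 CPM in shCtrl cells, against 104, 107 and 102 CPM in shPRRC2B cells. The lines did not overlap in either fraction, with shPRRC2B lower in polysome RNA and slightly higher in total RNA. For DCP2 the TE change was -0.97 (SE 0.163, adjusted p = 0.000428). The 3′ UTR makes up 8714 of the 10110 nt of the DCP2 message, and its TE change without the length trend was -0.20 (adjusted p = 0.426).

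EDC3, an enhancer of decapping, had the smallest change among the called members of this group. Polysome RNA of EDC3 was 32.3, 33.2 and 33.9 CPM in the shCtrl libraries and 33.9, 26.8 and 21.8 CPM in the shPRRC2B libraries. Total RNA of EDC3 was 56.3, 58.7 and 54.5 CPM in shCtrl and 81.2, 78.9 and 64.9 CPM in shPRRC2B cells. Its polysome libraries overlapped and its total RNA was higher in every shPRRC2B library. For EDC3 the TE change was -0.68 (SE 0.208, adjusted p = 0.0228). PATL1, which bridges deadenylation and decapping, had a TE change of -1.20 (SE 0.371, adjusted p = 0.0231). The cytoplasmic exonuclease XRN1 and its nuclear relative XRN2 had TE changes of -1.22 (SE 0.314, adjusted p = 0.00852) and -0.73 (SE 0.177, adjusted p = 0.00573). EDC4, the scaffold of the decapping complex, was higher in total RNA (log2 change 0.84, adjusted p = 0.000729) and had a TE change of -0.50 (adjusted p = 0.155), and DCP1B had one of -0.32 (adjusted p = 0.388). DDX6, DCP1A and XRN2 were the 3 members of the group called with the length trend removed.

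**Figure D3:**
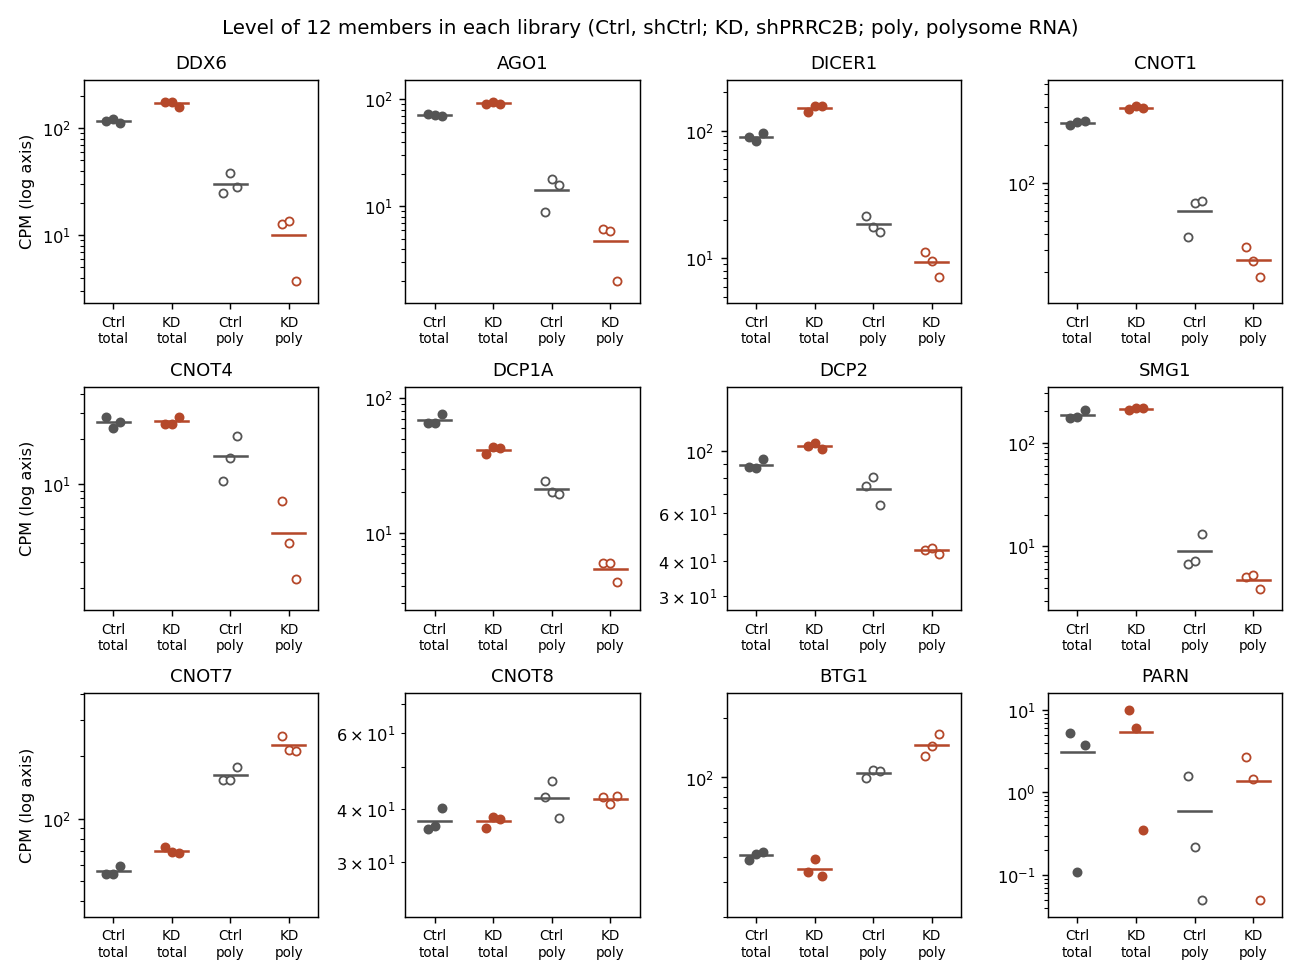
Level of 12 members in CPM (log axis, a separate scale in each panel) in every library, with filled points for total RNA, open points for polysome RNA and a line at the group mean. The DDX6, AGO1, DICER1, CNOT1, CNOT4, DCP1A, DCP2 and SMG1 polysome points of shPRRC2B all lie below those of shCtrl, those of CNOT7 and BTG1 lie above, those of CNOT8 overlap, and for PARN the libraries at 0 are drawn at 0.05 CPM.

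In nonsense-mediated decay, 2 of 6 members were TE-down, SMG1 and UPF2, and the median TE change was -0.41. SMG1 is the kinase that phosphorylates UPF1, and UPF2 the adaptor that activates it. SMG1 stood at 6.74, 7.27 and 13.1 CPM in shCtrl polysome RNA and at 5.07, 5.25 and 3.90 CPM in shPRRC2B polysome RNA. In total RNA, SMG1 reached 173, 176 and 207 CPM in shCtrl cells, against 206, 218 and 217 CPM in shPRRC2B cells. Polysome RNA of shPRRC2B was lower in every library and total RNA overlapped. For SMG1 the TE change was -1.12 (SE 0.278, adjusted p = 0.00672). SMG1 has near-identical pseudogene copies, and read pairs mapping to more than 1 place were not counted, so its level is uncertain. Polysome RNA of UPF2 was 7.68, 8.46 and 6.99 CPM in the shCtrl libraries and 7.91, 5.45 and 3.996 CPM in the shPRRC2B libraries. Total RNA of UPF2 was 35.9, 32.2 and 41.1 CPM in shCtrl and 53.0, 50.4 and 59.1 CPM in shPRRC2B cells. UPF2 overlapped in polysome RNA and was higher in total RNA in every shPRRC2B library (log2 change 0.58, adjusted p = 0.014). For UPF2 the TE change was -0.98 (SE 0.273, adjusted p = 0.0131). The helicase UPF1, the adaptor UPF3B and the decay factors SMG5 and SMG6 had TE changes of -0.23, -0.20, -0.34 and -0.47 and were not called. UPF3B, like CNOT10, fell in both fractions, with log2 changes of -0.89 in total RNA and -1.09 in polysome RNA (adjusted p = 0.000372 and 8.68e-05). None of the 6 was called by edgeR after removal of the length trend, the lowest adjusted p being that of UPF2 (0.135), and UPF1, SMG5 and SMG6 had values above 0 (0.22, 0.020 and 0.036).

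The microRNA machinery had the longest messages, with a median of 13712 nt, and 5 of its 7 members were TE-down with a median TE change of -1.19. The members called were AGO1, DICER1, TNRC6A, TNRC6B and AGO2. DICER1, the nuclease that cuts microRNA precursors, had the lowest adjusted p of all 48 members. DICER1 stood at 21.5, 17.6 and 16.2 CPM in shCtrl polysome RNA and at 11.3, 9.46 and 7.14 CPM in shPRRC2B polysome RNA. In total RNA, DICER1 reached 88.8, 82.2 and 96.1 CPM in shCtrl cells, against 139, 154 and 156 CPM in shPRRC2B cells. Its shPRRC2B libraries were all lower in polysome RNA and all higher in total RNA, and both fractions passed the thresholds in opposite directions (-0.99 with adjusted p = 0.000145, and 0.75 with adjusted p = 0.000606). For DICER1 the TE change was -1.74 (SE 0.219, adjusted p = 4.54e-05). The gene lies on chromosome 14 (95086228 to 95157529, minus strand). Without the length trend its TE change was -0.98 (adjusted p = 0.00313).

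AGO1 and AGO2, Argonaute proteins that hold the microRNA, were both called TE-down. Polysome RNA of AGO1 was 8.90, 18.1 and 15.8 CPM in the shCtrl libraries and 6.19, 5.92 and 1.998 CPM in the shPRRC2B libraries. Total RNA of AGO1 was 72.6, 70.7 and 69.7 CPM in shCtrl and 91.4, 95.3 and 91.2 CPM in shPRRC2B cells. The AGO1 lines were separate in both fractions, with shPRRC2B lower in polysome RNA and higher in total RNA. For AGO1 the TE change was -1.97 (SE 0.367, adjusted p = 0.00092). AGO1 lies on chromosome 1 (35883209 to 35930532, plus strand). AGO2 stood at 12.7, 20.4 and 23.5 CPM in shCtrl polysome RNA and at 16.8, 15.4 and 11.4 CPM in shPRRC2B polysome RNA. In total RNA, AGO2 reached 115, 117 and 118 CPM in shCtrl cells, against 151, 155 and 152 CPM in shPRRC2B cells. The AGO2 polysome values overlapped, while total RNA was higher in every shPRRC2B library. For AGO2 the TE change was -0.76 (SE 0.249, adjusted p = 0.0312). The call of AGO2 was the least stable of the 26, made in 3 of the 12 fits that left out a library. AGO3 had a TE change of -0.13 (adjusted p = 0.749). Without the length trend AGO1 was TE-down (-1.16, adjusted p = 0.0236), AGO2 stood at 0.069 and AGO3 at 0.69, neither of them called.

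TNRC6A, TNRC6B and TNRC6C are the paralogous scaffolds that connect Argonaute with the deadenylases. Polysome RNA of TNRC6A was 12.3, 6.62 and 7.43 CPM in the shCtrl libraries and 6.19, 3.63 and 2.76 CPM in the shPRRC2B libraries. Total RNA of TNRC6A was 68.6, 62.0 and 66.1 CPM in shCtrl and 88.8, 96.8 and 93.5 CPM in shPRRC2B cells. TNRC6A was lower in every shPRRC2B polysome library and higher in every total RNA library. TNRC6B stood at 5.53, 7.27 and 11.8 CPM in shCtrl polysome RNA and at 5.59, 5.45 and 5.71 CPM in shPRRC2B polysome RNA. In total RNA, TNRC6B reached 63.4, 66.8 and 66.1 CPM in shCtrl cells, against 99.7, 110.2 and 97.0 CPM in shPRRC2B cells. TNRC6B overlapped in polysome RNA, since replicate 1 of shCtrl lay within the range of the knockdown, and rose in total RNA (log2 change 0.65, adjusted p = 0.0054). Polysome RNA of TNRC6C was 5.99, 2.496 and 2.77 CPM in the shCtrl libraries and 4.47, 3.73 and 5.61 CPM in the shPRRC2B libraries. Total RNA of TNRC6C was 22.5, 22.2 and 22.5 CPM in shCtrl and 25.2, 25.2 and 25.5 CPM in shPRRC2B cells. TNRC6C overlapped in polysome RNA and was slightly higher in every total RNA library. TNRC6A and TNRC6B had TE changes of -1.57 (SE 0.32, adjusted p = 0.00181) and -1.19 (SE 0.269, adjusted p = 0.00374), and TNRC6C one of 0.093 (SE 0.339, adjusted p = 0.88). None of the 3 was called after removal of the length trend, with values of -0.88 (adjusted p = 0.05, at the limit), -0.34 and 0.87.

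The exosome, a ring of core subunits with the nucleases DIS3 and EXOSC10 attached, had both nucleases TE-down. EXOSC3, EXOSC4 and EXOSC5, the core subunits among the members, were not called, with TE changes of 0.15, -0.15 and 0.31 and messages of 1813, 842 and 998 nt. Of the core subunits outside the members, EXOSC9, named after its value was seen, was TE-down (-0.61, adjusted p = 0.0202). The others, EXOSC1 (-0.28), EXOSC2 (-0.42), EXOSC6 (-0.10), EXOSC7 (0.45) and EXOSC8 (-0.0024), were not called. DIS3 stood at 91.3, 72.6 and 77.6 CPM in shCtrl polysome RNA and at 66.1, 49.2 and 39.4 CPM in shPRRC2B polysome RNA. In total RNA, DIS3 reached 134, 134 and 146 CPM in shCtrl cells, against 167, 167 and 167 CPM in shPRRC2B cells. DIS3 was lower in every shPRRC2B polysome library and higher in every total RNA library. For DIS3 the TE change was -0.92 (SE 0.216, adjusted p = 0.00474). Polysome RNA of EXOSC10 was 25.9, 22.7 and 21.6 CPM in the shCtrl libraries and 28.2, 31.0 and 31.96 CPM in the shPRRC2B libraries. Total RNA of EXOSC10 was 64.6, 57.8 and 60.1 CPM in shCtrl and 109.7, 109 and 118 CPM in shPRRC2B cells. EXOSC10 was higher in every shPRRC2B library of both fractions, and more so in total RNA (log2 change 0.88, adjusted p = 2.08e-05) than in polysome RNA (0.37). For EXOSC10 the TE change was -0.51 (SE 0.168, adjusted p = 0.0322). EXOSC4 rose in both fractions (0.81 in total RNA and 0.66 in polysome RNA, adjusted p = 6.99e-05 and 0.000195) and EXOSC5 fell in both (-0.81 and -0.50, adjusted p = 0.000574 and 0.0101). With the length trend removed DIS3 stood at -0.15 (adjusted p = 0.609), whereas EXOSC4 (-0.65, adjusted p = 0.0163) and EXOSC10 (-0.51, adjusted p = 0.0363) were TE-down.

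Of the RNA-binding recruiters, ZFP36L1 and PUM2 were TE-down and ZFP36L2 was not called. ZFP36L1 and ZFP36L2 bind AU-rich elements and PUM2 binds Pumilio elements, and each brings CCR4-NOT to its targets. ZFP36L1 stood at 7.68, 10.9 and 14.8 CPM in shCtrl polysome RNA and at 5.33, 4.78 and 2.85 CPM in shPRRC2B polysome RNA. In total RNA, ZFP36L1 reached 26.9, 29.5 and 27.8 CPM in shCtrl cells, against 27.3, 28.2 and 26.7 CPM in shPRRC2B cells. ZFP36L1 was lower in every shPRRC2B polysome library with total RNA overlapping. For ZFP36L1 the TE change was -1.31 (SE 0.308, adjusted p = 0.00473). Its message is 3017 nt long, and with the length trend removed the TE change was -1.25 (adjusted p = 0.008). Polysome RNA of PUM2 was 28.0, 16.8 and 28.95 CPM in the shCtrl libraries and 17.2, 11.1 and 11.04 CPM in the shPRRC2B libraries. Total RNA of PUM2 was 84.6, 85.2 and 91.8 CPM in shCtrl and 80.9, 84.8 and 83.0 CPM in shPRRC2B cells. Both fractions of PUM2 overlapped between the lines, in polysome RNA because replicate 2 of shCtrl lay near the knockdown values. For PUM2 the TE change was -0.83 (SE 0.263, adjusted p = 0.0259). ZFP36L2 had a TE change of 0.065 (adjusted p = 0.883), and PUM2 stood at -0.28 with the length trend removed (adjusted p = 0.433).

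PAR-CLIP, in which a protein is crosslinked to the RNA it touches, places a PRRC2B site in the messages of 2 members. Their central 30 nt are shown because PRRC2B is the knocked-down protein and both messages are TE-down before removal of the length trend. Sequences were read from GRCh38 in the sense of the transcript, and capitals mark the longest run of C and T.
DIS3, site of full-length PRRC2B: tctcctaCTTTTCCatatctaaacactctg
TNRC6A, site of the P2 fragment of PRRC2B: tcgactgttcccactcaTTCTCCagccgga
The DIS3 stretch is chr13:72762048-72762077 on the minus strand, in exon 17 and inside the coding sequence, and C and T make up 73.3% of it and 57.0% of the whole 100 nt site. The TNRC6A stretch is chr16:24823572-24823601 on the plus strand, in exon 25 and inside the coding sequence, with 66.7% C and T, beside 58.0% in its whole 100 nt site. The share of C and T in other sequence was not measured. The TE changes of these messages, -0.92 for DIS3 and -1.57 for TNRC6A, lie within the range of the other TE-down members. With the length trend removed neither was called, at -0.15 (adjusted p = 0.609) and -0.88 (adjusted p = 0.05). The messages are 10571 and 8491 nt long, and 46.1% of all genes of 8000 nt or more were TE-down. None of the 48 is among the mRNAs with sites that overlap between the full-length protein and the fragment, and 46 have no site in either list. The share of all genes with such sites was not computed, so these counts do not set the members apart.

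Where the members stood before the knockdown was measured as the polysome-to-total ratio in shCtrl cells, on the scale set by TMM. The ratio was below 1 by the test for 36 members, beside 39.8% of all genes tested. The count was 23 with the length trend removed, beside 30.3% of all genes, and 43 with scaling by total counts or TMM within each fraction. For those scalings the share of all genes was not computed, so the count of 43 cannot be set against it. On the TMM scale the fitted ratio was above 1 for 9 members. It was above 1 by the test for 5 of them, CNOT7, BTG1, EXOSC3, EXOSC4 and EXOSC5, beside 5906 of the 18166 genes tested. The median of its log2 was -1.56, beside -0.22 for all genes. The lowest log2 ratios were those of SMG1 (-4.37), SMG6 (-4.03) and PAN2 (-3.42), and the highest those of EXOSC5 (2.16), EXOSC4 (2.09) and EXOSC3 (2.07). All 6 members of nonsense-mediated decay and all 7 of the microRNA machinery were below 1. Levels in shCtrl total RNA per kilobase of transcript ranged from 0.994 CPM per kb for PARN and 1.74 for AGO3 to 38.2 for SMG5, with UPF3B (35.7), CNOT1 (35.4) and UPF1 (33.9) next. The PARN value is a mean over libraries with 139, 3 and 55 counts and is uncertain.

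Transcript length moved with the TE change. In the 7 length bins, the share of all genes that was TE-down went up in every step from 1.97% below 1000 nt to 46.1% at 8000 nt or more, with the median TE change going from 0.48 to -0.78. Of the 13 members shorter than 3000 nt, where at most 8.88% of all genes in a bin were TE-down, 2 were (TOB1 and EXOSC10), and of the 13 members of 8000 nt or more 11 were. In the bin from 3000 to 4000 nt, where 19.5% of all genes were TE-down, 5 of 7 members were. In the bin from 4000 to 6000 nt 5 of 11 members were TE-down beside 29.4% of all genes, and in the bin from 6000 to 8000 nt 3 of 4 beside 40.1%. The median TE change of the members was below that of all genes in each of the 7 bins: 0.078 beside 0.48 in the shortest, and -1.19 beside -0.78 in the longest. The bin below 1000 nt held only 2 members and the bin from 1000 to 2000 nt only 1, none of them TE-down. Over the 48 members the TE change and log2 length had a Pearson r of -0.47 and a Spearman rho of -0.48, a description across genes measured in the same libraries. The corresponding r was -0.40 for the length of the coding sequence and -0.37 for that of the 3′ UTR.

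**Figure D4:**
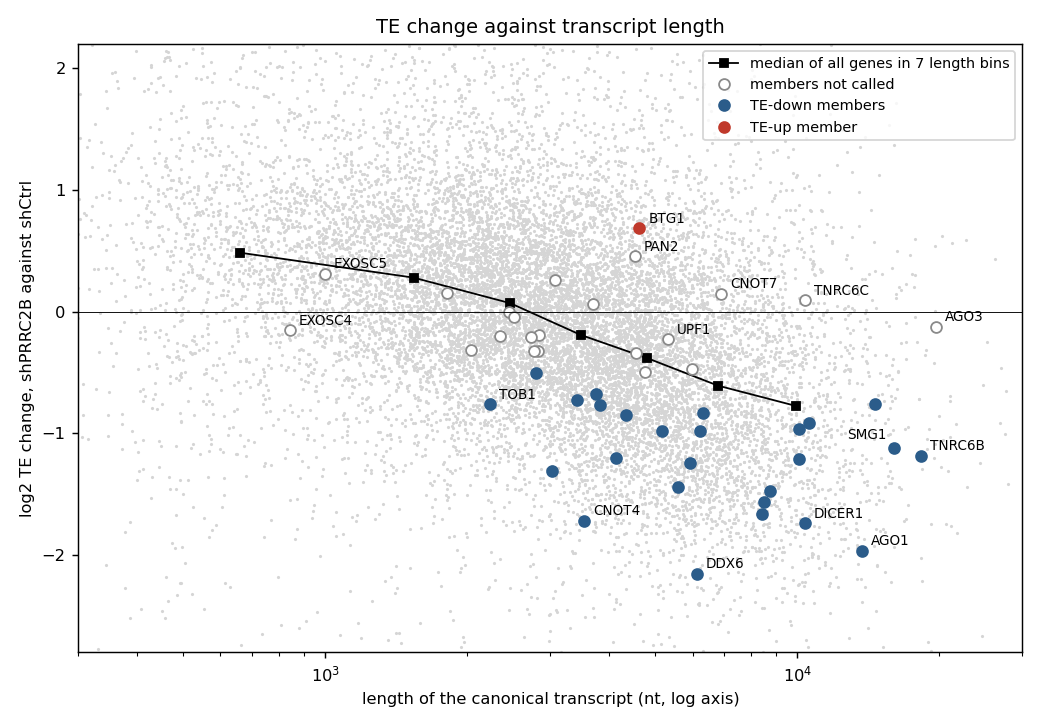
Log2 TE change against the length of the canonical transcript (log axis) for the 48 members and, in grey, all tested genes with a length, with black squares for the median of all genes in 7 length bins. The line of medians falls from 0.48 to -0.78, DDX6, CNOT4 and AGO1 lie far below it, and BTG1, PAN2, CNOT7, TNRC6C and AGO3 lie above it.

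With the length trend removed, 12 of the 26 TE-down members were still called: CNOT1, CNOT4, CNOT9, PAN3, TOB1, DCP1A, DDX6, XRN2, AGO1, DICER1, EXOSC10 and ZFP36L1. EXOSC4 was added, which makes 13. The 14 members that were not called in that fit were CNOT6, CNOT6L, TOB2, DCP2, EDC3, PATL1, XRN1, SMG1, UPF2, AGO2, TNRC6A, TNRC6B, DIS3 and PUM2. Fitted values were below 0 for 37 members in that fit, in which the median over all genes tested was 0.0083. The TE-up members were BTG1, CNOT7 and PAN2.

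Other genes of the same pathways, 86 in all, were taken as 6 lists, of which 82 genes were tested. The others (LSM2, DXO, PATL2 and LIN28A) had too few counts. Of the 82, 28 (34.1%) were TE-down and 9 were TE-up, beside 16.4% and 10.7% of all genes tested, with a median TE change of -0.37. After removal of the length trend 17 were TE-down and 8 TE-up, beside 10.7% and 9.91% of all genes. Only 78 of the 82 had a known length, and TTC37 and MPP6, which had none and were not adjusted, are among the 17. The TE-up counts are near the shares of all genes in both fits. Recruiters had 8 of 14 TE-down, RC3H1 (Roquin-1) the lowest at -2.08, and none TE-up. Genes of the microRNA pathway had 5 of 9 TE-down, the lowest being TRIM71 at -1.77, and PRKRA was TE-up at 0.91. Among the exosome cofactors and no-go decay genes 7 of 24 were TE-down, with the helicase MTREX lowest at -1.23, and C1D was TE-up at 0.79. For nonsense-mediated decay 4 of 12 were TE-down, and UPF3A was TE-up at 1.08. Other deadenylases and CCR4-NOT partners had 3 of 7 TE-down, PDE12 the lowest at -1.17, with NANOS1 TE-up at 1.69. The decapping, LSm and translational repression list had 5 of 16 genes TE-up, LSM6 the highest at 1.34, and GIGYF1 as its 1 TE-down gene at -1.46. The messages of that list had a median length of 2488 nt.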

How the data were processed

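Total and polysome RNA of the shCtrl and shPRRC2B lines of HEK293T were measured in 3 libraries per line and fraction. The authors deposited raw counts, the read pairs counted per gene name, with no normalization. Per the study's methods, Trimmomatic 0.36 trimmed the reads, Hisat aligned them with GRCh38, and featureCounts of Subread 2.0.1 assigned pairs to GENCODE 38 genes. The options given name no strand, so a gene and an antisense partner that overlap cannot be told apart, and pairs with several mapping places were not counted. All value columns matched a library (0 did not). Groups were read from the sample labels.

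In R 4.3.3, edgeR 4.0.16 was applied to the counts of all 12 libraries with 4 groups of line and fraction. Genes passed filterByExpr with a minimum count of 10, and 18166 of 59385 were kept. Sizes were scaled by TMM, and glmQLFTest gave the contrasts, with the Benjamini-Hochberg method over all genes. Medians and correlations over the members carry no test. Lengths and positions were those of canonical transcripts of GENCODE 44 on GRCh38, found for 86.8% of genes tested and all 48 members. The standard errors and p-values measure the spread between the libraries of each group, and library totals of 9855734 to 20837542 counts limit the precision of members with few polysome counts.

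The members, the 8 role lists and the 6 lists of other pathway genes were chosen with earlier results of these data known. Values in every library were given, by rule, for the called members with the lowest and highest TE change of each role, the 6 members with the lowest adjusted p, members called TE-up or changed by more than 1 log2 unit in total RNA, the paralogs CNOT6 and CNOT6L, CNOT7 and CNOT8 and the TNRC6 genes, and the members with a PAR-CLIP site. All other members are named with their TE change, and each list of other genes is represented by its lowest and highest called gene, of which some are not reported here. The pipeline was tested on simulated data. Alternatives were DESeq2 1.42.0, other scalings (RLE, total counts, TMM within each fraction), other filters, no minimum log2 change, a replicate block over all groups or within each line, each fraction alone, the length trend removed as a lowess offset with span 0.3, and each library left out. Removal of the trend with library means kept was added after the data were seen. Protein sequences were not used here.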

Additional observations from a re-analysis of the deposited data

Results flagged for a closer look

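The TE changes of 3 members, -1.57 for TNRC6A, -1.19 for TNRC6B and -1.74 for DICER1, were set apart by rule. The rule required a called TE change, with total RNA and polysome RNA past the thresholds in opposite directions. All 3 were higher in total RNA and lower in polysome RNA of shPRRC2B cells. The edgeR adjusted p of the TE changes were 0.00181, 0.00374 and 4.54e-05. Since a called TE change was part of the rule, they are no separate test of the difference. In total RNA the log2 changes were 0.50, 0.65 and 0.75, and in polysome RNA -1.06, -0.54 and -0.99. TNRC6A passed narrowly in total RNA (adjusted p = 0.0486) and TNRC6B in polysome RNA (adjusted p = 0.0493), where its libraries overlapped. Members not set apart, CNOT1, DDX6, AGO1 and DCP2 among them, also had every shPRRC2B library lower in polysome RNA and higher in total RNA. With the length trend removed DICER1 was still TE-down (-0.98), while TNRC6A (-0.88) and TNRC6B (-0.34) were not called. Single samples that stand apart were not looked for by rule, since each group holds 3 samples.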

How the results depend on the processing

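Across the alternatives, the TE changes of the members stayed on their side of the thresholds in 447 cases, lost a call in 46, gained one in 9 and changed sign in 24, and with single libraries left out these numbers were 524, 32, 3 and 17. The choice that moved the members most was transcript length. With the length trend removed, 13 members were TE-down and 3 TE-up, 13 were lower and 7 higher in polysome RNA, 23 had a lower polysome-to-total ratio in shCtrl cells, and the median TE change was -0.33. Over all genes tested the share of TE-down among called genes moved from 60.6% to 51.8% in that fit. In the same fit UPF1 (0.22), SMG5 (0.020), SMG6 (0.036), AGO2 (0.069), AGO3 (0.69), EXOSC3 (-0.12) and EXOSC5 (-0.18) changed sign. Trend removal with library means kept, chosen after seeing the data, gave 15 TE-down and 3 TE-up members, 6 higher in polysome RNA, 4 higher in total RNA and a median of -0.41, with UPF1 (0.15), AGO3 (0.62), EXOSC3 (-0.20) and EXOSC5 (-0.26) of the other sign. Over all genes tested that fit called 2346 TE-down and 1575 TE-up, and its shares in polysome and total RNA were not computed.

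With no minimum log2 change, 4 members were higher in polysome RNA and 14 in total RNA. Shares of all genes in polysome or total RNA were not computed for the settings of this paragraph. TMM within each fraction gave 2 members higher in polysome RNA, and the filter of at least 10 counts in every library gave 3 and left out PARN and SMG6. The TE change of CNOT8 and the TE change of CNOT11, not called under any setting, had the other sign with total counts (0.048 and 0.012), TMM within each fraction (0.061 and 0.024) and that filter (0.063 and 0.025). DESeq2 called 3365 genes TE-down and 2177 TE-up and made all 26 TE-down calls of the members. EXOSC10 lost its call under 5 of the settings that left length alone, and the TE change of AGO2 under scaling by total counts (adjusted p = 0.0537). The cause was not tested.

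The replicate numbers are not stated to mark shared cultures, and libraries with the same number did not deviate together (correlations of -0.19 to 0.15 between groups), so the replicate block is given only here. With the replicate block, 26 members were TE-down and 1 was TE-up, the same members as without it, and over all genes 2807 were TE-down and 1812 TE-up. With the replicate block and the length trend removed together, 11 members were TE-down and 3 TE-up, 13 were lower and 7 higher in polysome RNA, 23 had a lower shCtrl ratio, and the median was -0.33. UPF1 (0.24), SMG5 (0.017), SMG6 (0.026), AGO2 (0.078), AGO3 (0.70), EXOSC3 (-0.12) and EXOSC5 (-0.18) then had the other sign. Over all genes 1759 were TE-down and 1634 TE-up in that fit, and the shares of all genes in polysome RNA and for the shCtrl ratio were not computed for it.

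With each library left out in turn, 21 to 29 members were TE-down, 1 was TE-up, 0 to 2 were higher in polysome RNA (0 without shPRRC2B polysome replicate 1, 2 without shCtrl polysome replicate 1), and the median TE change was -0.87 to -0.65. Over all genes, TE-down calls in these fits went from 2333 of 18874 to 3716 of 18992. TE-up calls over all genes went from 1285 of 18850 to 2532 of 18992, and shares in polysome RNA were not computed. Without shPRRC2B polysome replicate 1, EDC4 (-0.86), UPF3B (-0.54) and SMG5 (-0.53) were TE-down. Of the 26 TE-down members, 20 kept their call in every such fit. The TE change of TOB1 lost it without shPRRC2B total replicate 2 (adjusted p = 0.0546), and EDC3 was called in 8 of the 12 fits, PATL1 in 7, EXOSC10 in 6, PUM2 in 5 and AGO2 in 3, with adjusted p of at most 0.0886. Members not called changed sign within these ranges: CNOT8 -0.13 to 0.021, CNOT11 -0.22 to 0.0086, PARN -0.75 to 2.71, UPF1 -0.48 to 0.026, AGO3 -0.31 to 0.085, TNRC6C -0.18 to 0.59 and ZFP36L2 -0.19 to 0.15. Polysome libraries varied more than total RNA libraries, which limits the members with few polysome counts.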
